A study of Mus musculus with 18 samples.

Results

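Hippocampus RNA of mice rotated in both directions with free sight (D+V group) was compared with that of mice that turned in a single direction with their sight blocked (S-V group). The 10 libraries compared, 5 a group, were chosen by their group labels from the 18 libraries of the series. The other libraries were 5 of the D-V group, rotated in both directions with vision blocked and named after the Coriolis illusion in the labels, and 3 of a blank Control group. Rotation and vision changed together between D+V and S-V, so their parts cannot be told apart in this contrast. D-V, which shares its rotation with D+V and its blocked vision with S-V, is set beside them in the same fit. The labels give no strain, age, sex, rotation speed or duration, and nothing states that libraries come from separate animals, so a p-value here reflects library-to-library spread, which may be technical. The design text states that tissue was taken directly after the rotation.

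The hippocampus builds maps of place and heading from self-motion signals of the vestibular organs and from sight. Neuronal activity induces immediate early genes within minutes, through kinases that act on the serum response factor (SRF) and on CREB at DNA elements near the start of transcription. Adrenal glucocorticoids, released in stress, act through the glucocorticoid receptor, a transcription factor of which hippocampal neurons hold much. Transcripts of both programs respond soon after a stimulus.

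Library totals were 15.03 to 25.31 M estimated counts in D+V and 15.56 to 24.28 M in S-V. Markers of hippocampal cells were present in all 10 libraries: the summed level of 19 dentate granule cell markers was 1120 to 1335 CPM (counts scaled to a common library size with TMM factors) in D+V and 1078 to 1539 in S-V, and that of 17 CA3 markers 1921 to 2638 in D+V and 2129 to 2313 in S-V. Choroid plexus markers varied far more, with summed levels of 337 to 12840 CPM in D+V and 396 to 5947 in S-V, and D+V library 2 and S-V libraries 2 and 4 were rich in them. D+V libraries also differed among themselves more than S-V libraries did. The median SD of a gene was 0.20 (log2 CPM) in D+V and 0.14 in S-V. D+V library 1 stood apart on the second principal component, at −25.3, while D+V libraries 2, 3 and 5 were at 25.8, 32.8 and 32.1, D+V library 4 was at 5.75, and S-V libraries lay between −12.3 and 6.18. In bulk tissue, fewer cells of a type and less RNA per cell cannot be told apart.

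No gene passed the test between D+V and S-V. The quasi-likelihood F test of edgeR called 0 of 14763 genes (0%) at a Benjamini-Hochberg adjusted p under 0.05, with a smallest adjusted p of 0.175. At an unadjusted p under 0.05 were 1917 genes (13%), where 5% is the share for genes that do not differ. Of these, 1210 (8.2%) had a higher and 707 (4.79%) a lower level in D+V. All 5 D+V libraries lay above all 5 S-V libraries for 91 genes (0.616%), and below them for 88 (0.596%). DESeq2 called 5 genes (0.0339%), with adjusted p from 0.0236 to 0.0469: the transcripts of Plekhf1 (log2 fold change −0.81), Acer2 (−0.77), Klf2 (−0.66) and Sgk1 (−0.56) were lower in D+V, and that of Scn7a (0.91) was higher. Acer2, a ceramidase, and Scn7a, a sodium channel relative, are named after their values were seen. D+V library 1 decided the edgeR count: without it 1450 genes (9.82%) were called, 944 higher and 506 lower in D+V, and without any other of the 10 libraries 0 were called. Over all genes the median absolute log2 fold change was 0.11. The levels below are therefore given as measurements, and those without a call by edgeR are not written as changes.

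Immediate early genes had lower levels in D+V than in S-V across most of the list. All 34 listed genes were measured, and 31 had a negative and 3 a positive log2 fold change, with a median of −0.22 against −0.0046 over all genes tested. At an unadjusted p under 0.05 were 13 of the 34 (38.2%), all of them lower in D+V, and 0 were called over all genes. Over all genes tested 13% were at that p, and 4.79% were at that p and lower in D+V. The list score, the mean log2 CPM of the members relative to all 18 libraries, was −0.14, −0.03, −0.30, −0.10 and −0.20 in D+V libraries 1 to 5, and 0.06, 0.07, 0.13, 0.12 and 0.16 in S-V libraries 1 to 5. Every D+V score was thus below every S-V score, and D+V library 1, apart from its group in other respects, was within the range of its group here. Of all 37 lists scored, no other had D+V scores all below or all above its S-V scores. The lists were chosen with earlier results of these data known, so this separation is not a single planned result.

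Klf2, a zinc finger transcription factor induced by growth factors and blood flow, had 8.88, 9.65, 6.45, 9.69 and 9.76 CPM in D+V libraries, against 13.8, 13.2, 17.2, 16.1 and 13.9 CPM in S-V libraries. The groups did not overlap, and the log2 fold change was −0.73 (SE 0.17, 95% interval −1.09 to −0.38). Dusp5, a nuclear phosphatase that switches ERK off, had 22.2, 17.1, 14.9, 20.7 and 17.1 CPM in D+V, against 27.6, 25.2, 27.5, 23.9 and 25 CPM in S-V, again with no overlap (log2 −0.49, SE 0.13). Egr2, a zinc finger factor of the Egr family, had 2.42, 2.21, 0.81, 1.02 and 2.66 CPM in D+V, against 3.18, 2.84, 3.22, 3.40 and 5.19 CPM in S-V (log2 −0.96, SE 0.27). It too had no overlap, though at a low level, and S-V library 5 was far above the other S-V libraries. Gadd45b, which takes part in activity-dependent DNA demethylation, averaged 10.8 ± 0.81 CPM in D+V and 13.3 ± 1.19 CPM in S-V (SD, n = 5 each). Its groups met only at D+V library 1, with 12.2 CPM, and S-V library 4, with 11.9 CPM.

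The promoters of Dusp5 and Egr2 are shown because these genes of the list had no overlap between the groups and hold a CArG box, the SRF binding element, close to the start. The capitals mark CArG boxes in the 250 bases before the RefSeq start, on build GRCm38.p6, plus strand.
Dusp5, chr19:53528895-53529144: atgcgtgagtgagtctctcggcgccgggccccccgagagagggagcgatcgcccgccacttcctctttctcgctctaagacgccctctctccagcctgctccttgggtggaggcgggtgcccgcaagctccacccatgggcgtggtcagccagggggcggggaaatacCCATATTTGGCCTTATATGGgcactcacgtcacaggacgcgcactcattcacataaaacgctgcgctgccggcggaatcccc
Egr2, chr10:67537619-67537868: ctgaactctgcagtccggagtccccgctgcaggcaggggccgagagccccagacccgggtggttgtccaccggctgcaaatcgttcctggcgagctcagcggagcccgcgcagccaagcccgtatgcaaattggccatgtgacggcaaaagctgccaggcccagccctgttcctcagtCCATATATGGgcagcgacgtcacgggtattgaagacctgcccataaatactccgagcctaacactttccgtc
Dusp5 holds a pair of adjoining boxes, at positions −82 to −73 and −72 to −63 from the start, and Egr2 a single box at −72 to −63. The search covered both strands of windows from 250 bases before to 50 after each start. A CArG box was found in 535 of all 32851 RefSeq windows (1.63%) and in 5 of the 38 windows of immediate early genes, 1 of Dusp5 and 4 of the 5 of Egr2; none of the other genes among the 27 with a window held it. The cyclic AMP response element TGACGTCA was found in 588 of all windows (1.79%) and in 3 of those 38, at Btg2, Dusp1 and Maff. A match is a description of the letters and not of binding. No match says only that these letters are not in the window. Elements farther from the start, and listed genes without a window, were not searched.

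The classical activity markers were also lower on average, with overlap between the groups. Fos, the AP-1 subunit used to map active neurons, had 13.4, 17.2, 10.7, 11.2 and 10.1 CPM in D+V, against 15.4, 17.3, 15.1, 23.6 and 17.3 CPM in S-V (log2 −0.50, SE 0.20). Arc, a synaptic plasticity gene, had 135, 169, 91.7, 127 and 115 CPM in D+V, against 190, 139, 205, 145 and 198 CPM in S-V (log2 −0.46, SE 0.19). For both, a single D+V library, number 2, lay within the S-V range. Nr4a1, an orphan nuclear receptor, averaged 50.3 ± 10.8 CPM in D+V and 71.4 ± 12.5 CPM in S-V (log2 −0.50, SE 0.19). Egr1 averaged 114 ± 19.6 CPM in D+V and 138 ± 11.7 CPM in S-V (log2 −0.27, SE 0.12). Npas4, which is restricted to neurons and needs calcium entry, averaged 9.37 ± 1.21 CPM in D+V and 10.3 ± 1.83 CPM in S-V, and its log2 fold change of −0.14 (95% interval −0.55 to 0.28) spans 0. DESeq2 gave Npas4 the opposite sign (0.12). Bdnf, the neurotrophin whose transcription follows activity later, differed by −0.03 (95% interval −0.33 to 0.28). Delayed activity genes as a list were balanced, with 10 of 25 positive and 15 negative and a median of −0.02; among them Pcsk1, a prohormone convertase, was at 0.44 (SE 0.15) and Gpr3, a receptor coupled to adenylyl cyclase, at −0.52 (SE 0.20).

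**Figure D1:**
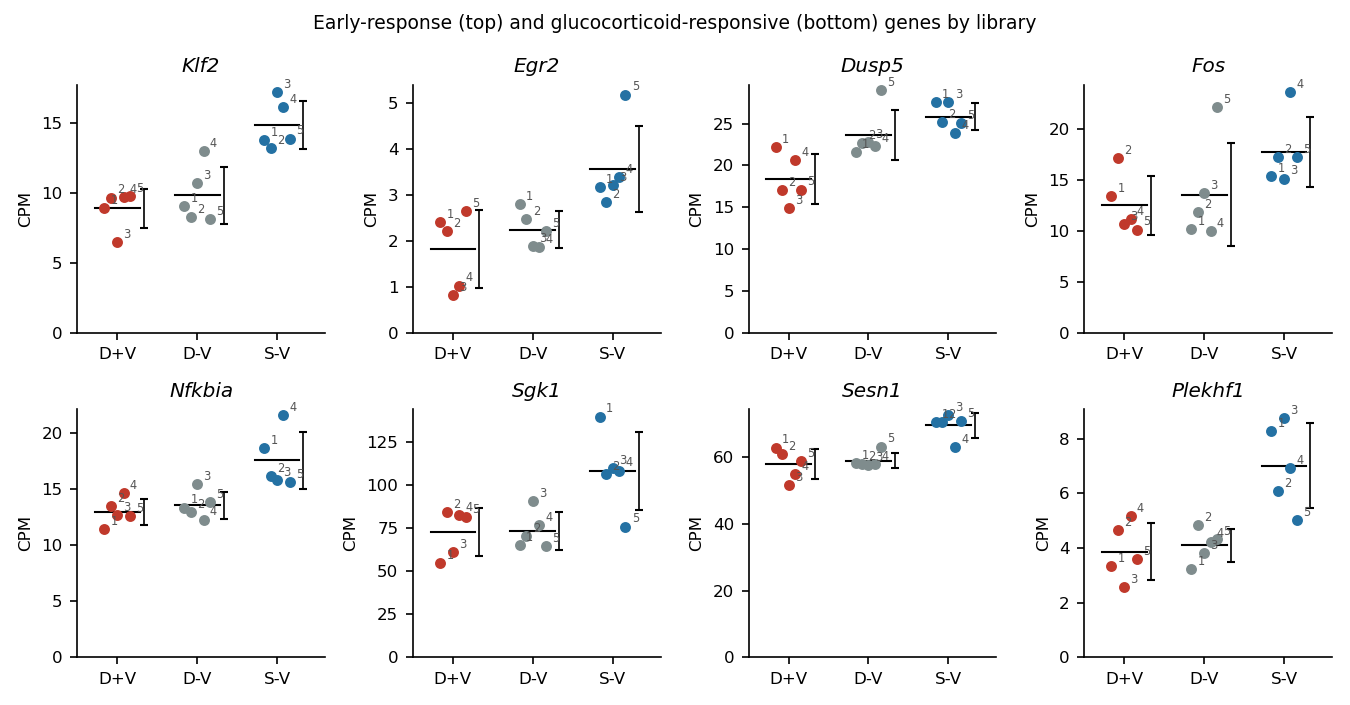
Levels (CPM, y axis from 0) of 4 immediate early genes (top) and 4 glucocorticoid-responsive genes (bottom) in D+V, D-V and S-V libraries; points are libraries with their number, lines are means and bars SD (n = 5 each). Every D+V point lies below every S-V point for Klf2, Egr2, Dusp5, Nfkbia and Sesn1, while D+V library 2 of Fos and S-V library 5 of Sgk1 and Plekhf1 lie within the range of the other group.

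Glucocorticoid-responsive genes had a median close to that of the immediate early genes. All 30 were measured, 26 with a negative and 4 with a positive log2 fold change. The median was −0.22 against −0.0046 over all genes. At an unadjusted p under 0.05 were 12 (40%), all lower in D+V, against 4.79% of all genes lower at that p, and 0 were called. The list shares 2 members, Dusp1 and Per1, with the immediate early genes. List scores were −0.05 ± 0.11 in D+V and 0.18 ± 0.19 in S-V (SD, n = 5 each), and S-V libraries 1 to 4 lay above all 5 D+V libraries while S-V library 5 lay among them. S-V library 4 had the highest score, and without it the median was −0.14, while that of the immediate early genes lay between −0.25 and −0.17 in the leave-outs of 1 library. That library also held 14.7 CPM of Lcn2, an acute-phase gene on this list and on that of inflammation, against 0.53 to 1.36 CPM in the other S-V libraries and 0.64 to 2.04 CPM in D+V. The part of inflammation in the result was not tested.

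Sgk1, a kinase and a direct target of the glucocorticoid receptor, had 54.4, 84.3, 61.1, 82.6 and 81.1 CPM in D+V, against 139, 106, 110, 108 and 75.7 CPM in S-V (log2 −0.57, SE 0.15, 95% interval −0.89 to −0.25). S-V library 5 lay within the D+V range, and the other S-V libraries lay above it. Plekhf1, an endosomal lipid-binding protein, had 3.35, 4.65, 2.58, 5.16 and 3.58 CPM in D+V, against 8.29, 6.075, 8.77, 6.92 and 5.02 CPM in S-V (log2 −0.85, SE 0.19). Its groups met only at D+V library 4 and S-V library 5. Nfkbia, the inhibitor of NF-kB that glucocorticoids induce, had 11.4, 13.4, 12.7, 14.6 and 12.6 CPM in D+V, against 18.6, 16.1, 15.8, 21.6 and 15.6 CPM in S-V (log2 −0.43, SE 0.11), with no overlap. Sesn1, a stress-induced inhibitor of growth signalling, averaged 57.9 ± 4.53 CPM in D+V and 69.6 ± 3.74 CPM in S-V (log2 −0.27, SE 0.07). Its groups did not overlap but nearly met, at 62.9 CPM in D+V library 1 and 63.1 CPM in S-V library 4.

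Other well-known targets overlapped between the groups. Tsc22d3, which encodes the leucine zipper protein GILZ, averaged 54.2 ± 8.22 CPM in D+V and 63.6 ± 8.71 CPM in S-V (log2 −0.23, SE 0.10). Fkbp5, the co-chaperone that restrains the receptor, had 71.3, 60.9, 51.8, 77.4 and 64.9 CPM in D+V, against 67.6, 71.8, 73.7, 64.3 and 62.7 CPM in S-V. Its log2 fold change was −0.06 (95% interval −0.26 to 0.14), and the D+V libraries spanned the S-V range on both sides.

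The Sgk1 promoter is shown because this gene, called by DESeq2, is the member of the list that holds the full glucocorticoid response element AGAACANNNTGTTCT, here in capitals, in the 250 bases before a RefSeq start (build GRCm38.p6, plus strand).
Sgk1, chr10:21993640-21993889: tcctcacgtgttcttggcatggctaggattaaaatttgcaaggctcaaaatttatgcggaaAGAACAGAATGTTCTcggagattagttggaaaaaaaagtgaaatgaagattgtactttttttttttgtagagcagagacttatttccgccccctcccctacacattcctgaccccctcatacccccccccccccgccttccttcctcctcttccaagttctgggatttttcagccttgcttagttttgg
The element lies at −189 to −175, in 1 of the 6 windows of Sgk1. The strict motif, searched on both strands, was rare: 3 of all 32851 windows held it (0.00913%), and 1 of the 40 windows of the glucocorticoid list. No match in the other windows says only that these letters are not there.

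Beside D-V, the lower levels differed from gene to gene. For Sgk1 the log2 difference between D-V and S-V was −0.56 and that between D+V and D-V −0.01. For Plekhf1 these were −0.78 and −0.07, for Nfkbia −0.37 and −0.06, for Sesn1 −0.24 and −0.03, and for Klf2 −0.60 and −0.14. The mean D-V levels of these genes were thus nearer to D+V, with which D-V shares its rotation. So were those of Fos (−0.39 and −0.11), Nr4a1 (−0.36 and −0.14), Egr1 (−0.20 and −0.07) and Egr2 (−0.66 and −0.30). The SE of each difference was 0.20 for Fos, 0.12 for Egr1 and 0.27 for Egr2. Fos was at 22.2 CPM in D-V library 5 and at 9.99 to 13.7 CPM in the other D-V libraries. For Dusp5 the differences were −0.13 and −0.36 (SE 0.13 each), and for Gadd45b −0.05 and −0.25 (SE 0.09 each). Their mean D-V levels were nearer to S-V, with which D-V shares blocked vision. The parts of rotation and vision in single genes were not tested. Arc (−0.22 and −0.24), Elk3 (−0.21 and −0.21) and Btg1 (−0.14 and −0.11) had mean D-V levels about midway. Arc was at 224 CPM in D-V library 5 and at 122 to 144 CPM in the other D-V libraries. Those other libraries were nearer to the D+V mean of 127 CPM than to the S-V mean of 175 CPM. Npas4, at 0.33 and −0.47, had a higher mean level in D-V than in both D+V and S-V. It was at 21.1 CPM in D-V library 5 and at 8.72 to 13.1 CPM in the other D-V libraries, against 7.55 to 12.2 CPM in S-V. Medians over the glucocorticoid list were −0.28 for D-V minus S-V and −0.01 for D+V minus D-V. Over the immediate early genes they were −0.10 and −0.12, and D-V library 5, with a list score of 0.19, stood above all S-V libraries. These differences share libraries with the contrast of D+V and S-V, and edgeR called 0 genes in either of them (950 genes at an unadjusted p under 0.05 for D-V against S-V and 2023 for D+V against D-V).

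Other transcripts of low p included regulators that are not members of the early-response and glucocorticoid lists. Elk3, an ETS partner of SRF, had 7.94, 9.11, 8.01, 8.59 and 8.78 CPM in D+V, against 9.73, 12.3, 11.6, 12.1 and 11.1 CPM in S-V, with no overlap (log2 −0.42, SE 0.10). Btg1, an antiproliferative protein that promotes mRNA deadenylation, averaged 45.5 ± 3.09 CPM in D+V and 54.3 ± 1.73 CPM in S-V, also with no overlap (log2 −0.25, SE 0.06). Bcl7b, a subunit of the BAF chromatin remodelling complex, averaged 39.4 ± 5.0 CPM in D+V and 49.6 ± 2.21 CPM in S-V, and D+V library 1 alone, at 47.5 CPM, reached the S-V range. Cox7c, a subunit of cytochrome c oxidase, averaged 91.4 ± 9.33 CPM in D+V and 117 ± 12.5 CPM in S-V (log2 −0.36, SE 0.09). Trp53rka, a kinase of the tRNA-modifying KEOPS complex, averaged 14.6 ± 1.94 CPM in D+V and 18.9 ± 0.97 CPM in S-V; a near copy, Trp53rkb, may share its reads.

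The genes of smallest p with higher levels in D+V had long transcripts. Bicd1, an adaptor that links cargo to the motor dynein, had 25.8, 35.0, 40.2, 29.8 and 37.9 CPM in D+V, against 22.3, 25.2, 21.6, 21.1 and 21.0 CPM in S-V (log2 0.60, SE 0.12, 95% interval 0.36 to 0.84). Ttc14, a tetratricopeptide repeat protein, had 48.2, 76.9, 75.0, 54.1 and 70.7 CPM in D+V, against 41.7, 44.7, 38.5, 37.7 and 43.1 CPM in S-V (log2 0.66, SE 0.13). Neither had any overlap, and D+V library 1 was the lowest of its group for both. Ktn1, which encodes kinectin, a kinesin anchor of the endoplasmic reticulum, averaged 53.7 ± 4.41 CPM in D+V and 43.5 ± 2.53 CPM in S-V, with no overlap (log2 0.30, SE 0.07).

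Scai, a cofactor that represses SRF-dependent transcription, had 36.8, 66.3, 77.2, 60.8 and 76.8 CPM in D+V, against 37.4, 39.7, 37.6, 41.6 and 36.9 CPM in S-V (log2 0.72, SE 0.15). D+V library 1 was at the level of S-V, and the other 4 D+V libraries were far above it. Rgs17, which turns off Gi and Gz signals, averaged 42.6 ± 7.98 CPM in D+V and 29.5 ± 2.2 CPM in S-V (log2 0.53, SE 0.11). Prkdc, the catalytic subunit of DNA-dependent protein kinase, averaged 21.9 ± 3.61 CPM in D+V and 15.02 ± 1.77 CPM in S-V (log2 0.54, SE 0.11). The zinc finger genes Zfp40 (log2 0.97, SE 0.20) and Zfp994 (0.81, SE 0.17) completed the 8; members of this gene family have near copies, so their reads may be shared. In D-V these genes were near S-V: the log2 difference of D-V and S-V was 0.05 for Bicd1, 0.07 for Ttc14, 0.06 for Ktn1 and 0.07 for Scai, and that of D+V and D-V was 0.54, 0.59, 0.25 and 0.65. Without D+V library 1 all 16 genes of smallest p, 8 in each direction, were called by edgeR, with adjusted p from 0.000525 to 0.0404. Of all genes 9.82% were called there, and the 16 had been picked by p from these same libraries. In the other leave-outs of 1 library they were not called, with adjusted p by edgeR from 0.0895 to 0.571.

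**Figure D2:**
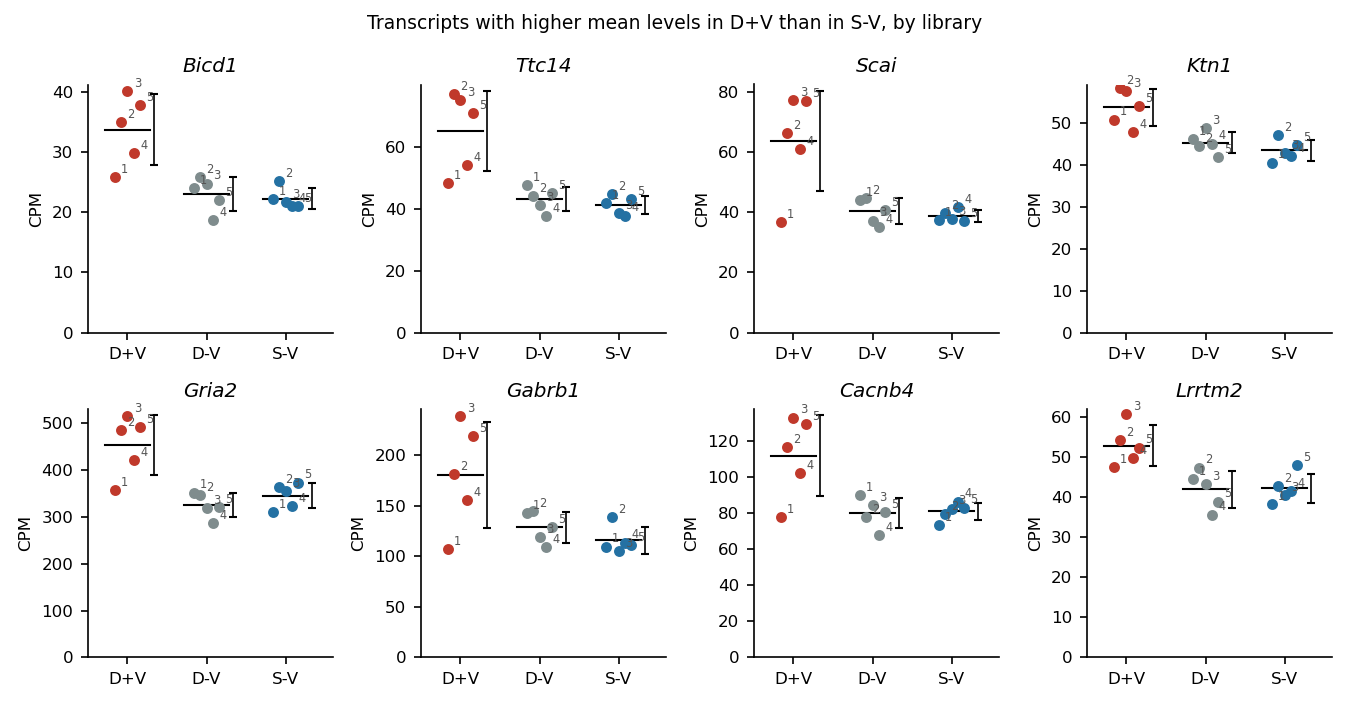
Levels (CPM, y axis from 0) of 8 transcripts with higher mean levels in D+V than in S-V, in D+V, D-V and S-V libraries; points are libraries with their number, lines are means and bars SD (n = 5 each). D-V lies near S-V in each panel, and D+V library 1 is the lowest D+V library for all but Ktn1, at 36.8 CPM for Scai against 36.9 to 41.6 CPM in S-V.

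Genes of neuronal excitability and synapses shared this direction. These lists also have long transcripts, with a median length of 8217 bases for voltage-gated channels, 5319 for glutamate receptors and 4662 for GABA signalling. The median over all genes was 3457 bases. Among the 1475 longest genes the median log2 fold change was 0.20, and 90.3% were positive. Of 34 voltage-gated channel genes 28 had a positive and 6 a negative log2 fold change (median 0.18). At an unadjusted p under 0.05 were 15 (44.1%), all higher in D+V, against 8.2% of all genes higher at that p, and 0 were called. Cacnb4, a calcium channel beta subunit, had 77.6, 116, 133, 102 and 129 CPM in D+V, against 73.4, 79.1, 82.3, 86.2 and 82.9 CPM in S-V (log2 0.46, SE 0.12). Scn2a, a sodium channel of axons, was at 0.40 (SE 0.12) and Kcnma1, the BK potassium channel, at 0.42 (SE 0.12). D+V library 1 again lay within the S-V range for these genes, and the list score of that library, −0.19, was below every S-V score.

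Among glutamate receptors 23 of 30 were positive (median 0.12) and among genes of GABA signalling 22 of 24 (median 0.11). Gria2, the AMPA receptor subunit that limits calcium entry, had 357, 486, 516, 421 and 492 CPM in D+V, against 311, 365, 356, 324 and 374 CPM in S-V (log2 0.39, SE 0.10). Grm5, a metabotropic receptor, was at 0.43 (SE 0.12). Gabrb1, a GABA-A receptor subunit, had 107, 182, 239, 156 and 219 CPM in D+V, against 110, 139, 105, 114 and 111 CPM in S-V (log2 0.64, SE 0.15), and Gabrb2 was at 0.81 (SE 0.26). The same library, D+V 1, was the lowest of its group for each. Synaptic vesicle genes had 22 positive and 9 negative members (median 0.10), with the active zone scaffolds Pclo at 0.40 (SE 0.13) and Bsn at 0.37 (SE 0.13). Postsynaptic density genes had 23 positive and 9 negative members (median 0.06), with the adhesion proteins Lrrtm2 at 0.33 (SE 0.08) and Nlgn1 at 0.42 (SE 0.11). Neuromodulator receptors had 22 positive and 10 negative members (median 0.07). Single libraries moved these medians without turning their sign: voltage-gated channels were at 0.12 without D+V library 3, GABA signalling at 0.07 without the same library, glutamate receptors at 0.07 without D+V library 4 and synaptic vesicle genes at 0.07 without D+V library 5. Postsynaptic density genes were at 0.02 without S-V library 4, with 19 positive and 13 negative members, and neuromodulator receptors at 0.04 without D+V library 4 and 0.14 without S-V library 4. Among them Chrna7, the alpha7 nicotinic receptor, was at 0.63 (SE 0.25), and at −0.10 with D+V libraries 2, 3 and 5 left out together. Htr1a, an inhibitory serotonin receptor, was at −0.28 (SE 0.11). The histamine receptors, of interest because antihistamines treat motion sickness, had intervals that span 0: Hrh1 was at 0.21 (95% interval −0.20 to 0.62), or 0.43 without S-V library 4, and Hrh3 at 0.01 (95% interval −0.34 to 0.36).

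Transcript length moved with these values. Across the tested genes (genes are no independent replicates), log2 fold changes had a Spearman correlation of 0.455 with the length of the longest transcript and −0.150 with its GC content. Genes at an unadjusted p under 0.05 had a median length of 6520 bases where they were higher and 2329 where they were lower, against 3457 over all genes. Among the 1475 longest the median log2 fold change was 0.20 and 90.3% were positive; among the 1475 shortest it was −0.12 and 20% were positive. By library, the correlation of a gene's relative level with length was −0.409, 0.189, 0.414, 0.424 and 0.405 in D+V libraries 1 to 5, and −0.284, 0.087, −0.140, −0.147 and −0.261 in S-V libraries 1 to 5. D+V library 1 was thus on the side of S-V, and beyond it. The source of these trends was not tested.

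**Figure D3:**
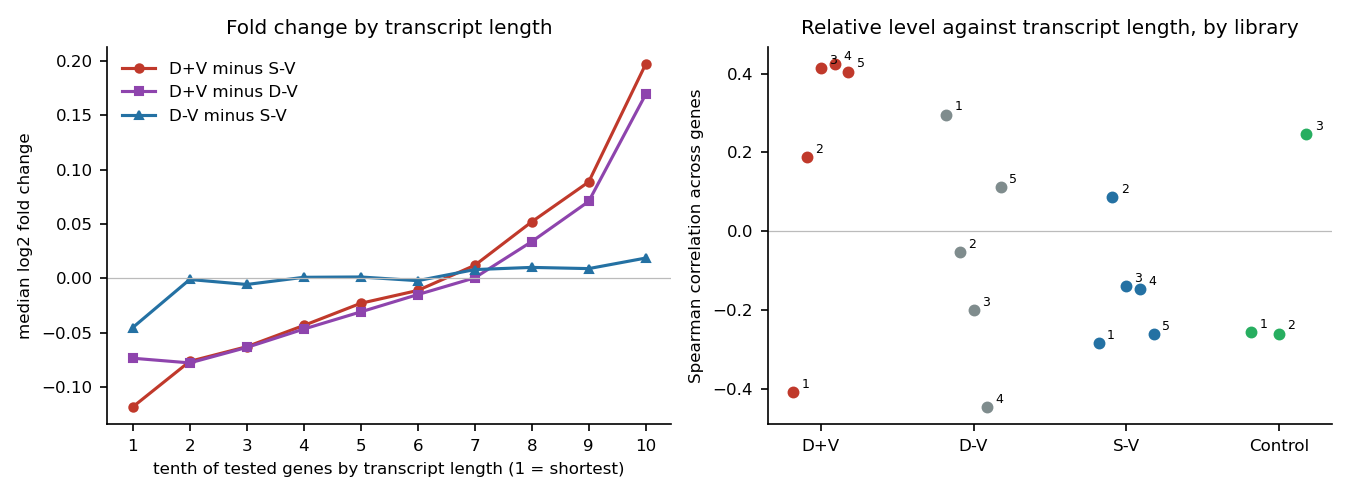
Left: median log2 fold change (y axis) in 10 equal groups of the tested genes by transcript length (x axis, 1 the shortest), for 3 contrasts. Right: Spearman correlation across genes of each library's relative level with transcript length. D+V minus S-V climbs with length, from −0.12 to 0.20, as does D+V minus D-V, while D-V minus S-V is near 0 in all but the shortest genes; D+V library 1 is at −0.409 and the other D+V libraries are above 0.

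In a fit with the trends of each library on GC content and length taken out, edgeR called 0 genes and 1189 were at an unadjusted p under 0.05 (8.06%). The median of the voltage-gated channels was then −0.03, with 15 positive and 19 negative members, that of GABA signalling 0.02 and that of glutamate receptors 0.05. Gria2 moved to 0.02, Nlgn1 to 0.07, Bicd1 to 0.27 and Scai to 0.29. Gabrb2 and Zfp40 moved little, to 0.82 and 0.81. The immediate early genes were at −0.18, still with 31 negative members, and the glucocorticoid list at −0.21, with 23 negative members; Klf2 was at −0.67, Egr2 at −0.93, Dusp5 at −0.44 and Sgk1 at −0.52. These lists have median transcript lengths of 2961 and 2667 bases.

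Lists of genes with short transcripts lay on the lower side. Of 48 cytosolic ribosomal protein genes (median length 1124 bases) 47 were negative, with a median of −0.13, and −0.01 with the trends removed. Rpl34 was at −0.33 (SE 0.10) and Rpl14 at −0.21 (SE 0.09). Of 38 nuclear genes of oxidative phosphorylation (median length 1591 bases) 33 were negative, with a median of −0.10, and 0.00 with the trends removed, with Cox5a, like Cox7c a cytochrome c oxidase subunit, at −0.21 (SE 0.08). Single libraries moved both medians: ribosomal proteins were at −0.20 without D+V library 1 and −0.05 without D+V library 4, and oxidative phosphorylation genes at −0.19 without D+V library 1. Transcripts of the mitochondrial genome took 8.33% ± 0.45 of counts in D+V and 8.79% ± 0.42 in S-V (SD, n = 5 each). The difference of −0.46 points had a two-sided exact permutation p of 0.135 over 252 splits, of which the smallest possible p is 0.00794. Among the mitochondrial genes mt-Nd3 was at −0.29 (SE 0.13), and mt-Atp8 at 0.93 (SE 0.31), or 0.38 without D+V library 5, which held 363 CPM.

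Heat shock and chaperone genes had 22 negative and 4 positive members (median −0.10). Hspe1, the mitochondrial co-chaperonin, was at −0.26 (SE 0.10), Fkbp4, a co-chaperone of steroid receptors, at −0.19 (SE 0.08), Hsp90aa1, the inducible HSP90, at 0.20 (SE 0.08) and Hspa4l, an HSP110 relative, at 0.29 (SE 0.11). Without D+V library 1 the median was −0.17 and without D+V library 5 −0.04. The list of clock genes had 6 positive and 13 negative members (median −0.06). Clock was at 0.40 (SE 0.11) and Nr1d1, the repressor REV-ERB alpha, at 0.23 (SE 0.07), while Nfil3, a repressor of clock output, was at −0.42 (SE 0.15), Cry1 at −0.22 (SE 0.09) and Per1 at −0.17 (SE 0.08). Splicing and nuclear speckle genes went both ways, with 9 of 36 higher and 6 lower at an unadjusted p under 0.05, against 8.2% and 4.79% of all genes. Pnisr was at 0.39 (SE 0.10) and the kinase Clk2 at −0.27 (SE 0.08). Inflammation genes, of which 16 of 25 were measured, had 3 positive and 13 negative members (median −0.09), and 8 of each sign without S-V library 4 (median −0.01). Endoplasmic reticulum stress genes had 12 positive and 16 negative members (median −0.03), and those of interferon and antigen presentation 11 and 19 (median −0.05, or 0.05 without S-V library 4). Hypoxia and glycolysis genes had 16 positive and 12 negative members (median 0.01). Ddit4, an mTOR inhibitor induced by hypoxia and glucocorticoids, averaged 35.0 ± 4.29 CPM in D+V and 42.9 ± 3.81 CPM in S-V, and its highest D+V library, at 39.4 CPM, was just under its lowest S-V library, at 39.5 CPM. Atf4, a factor of the stress response to unfolded proteins, was at −0.22 (SE 0.06), with 103 to 133 CPM in D+V against 132 to 134 CPM in S-V.

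**Figure D4:**
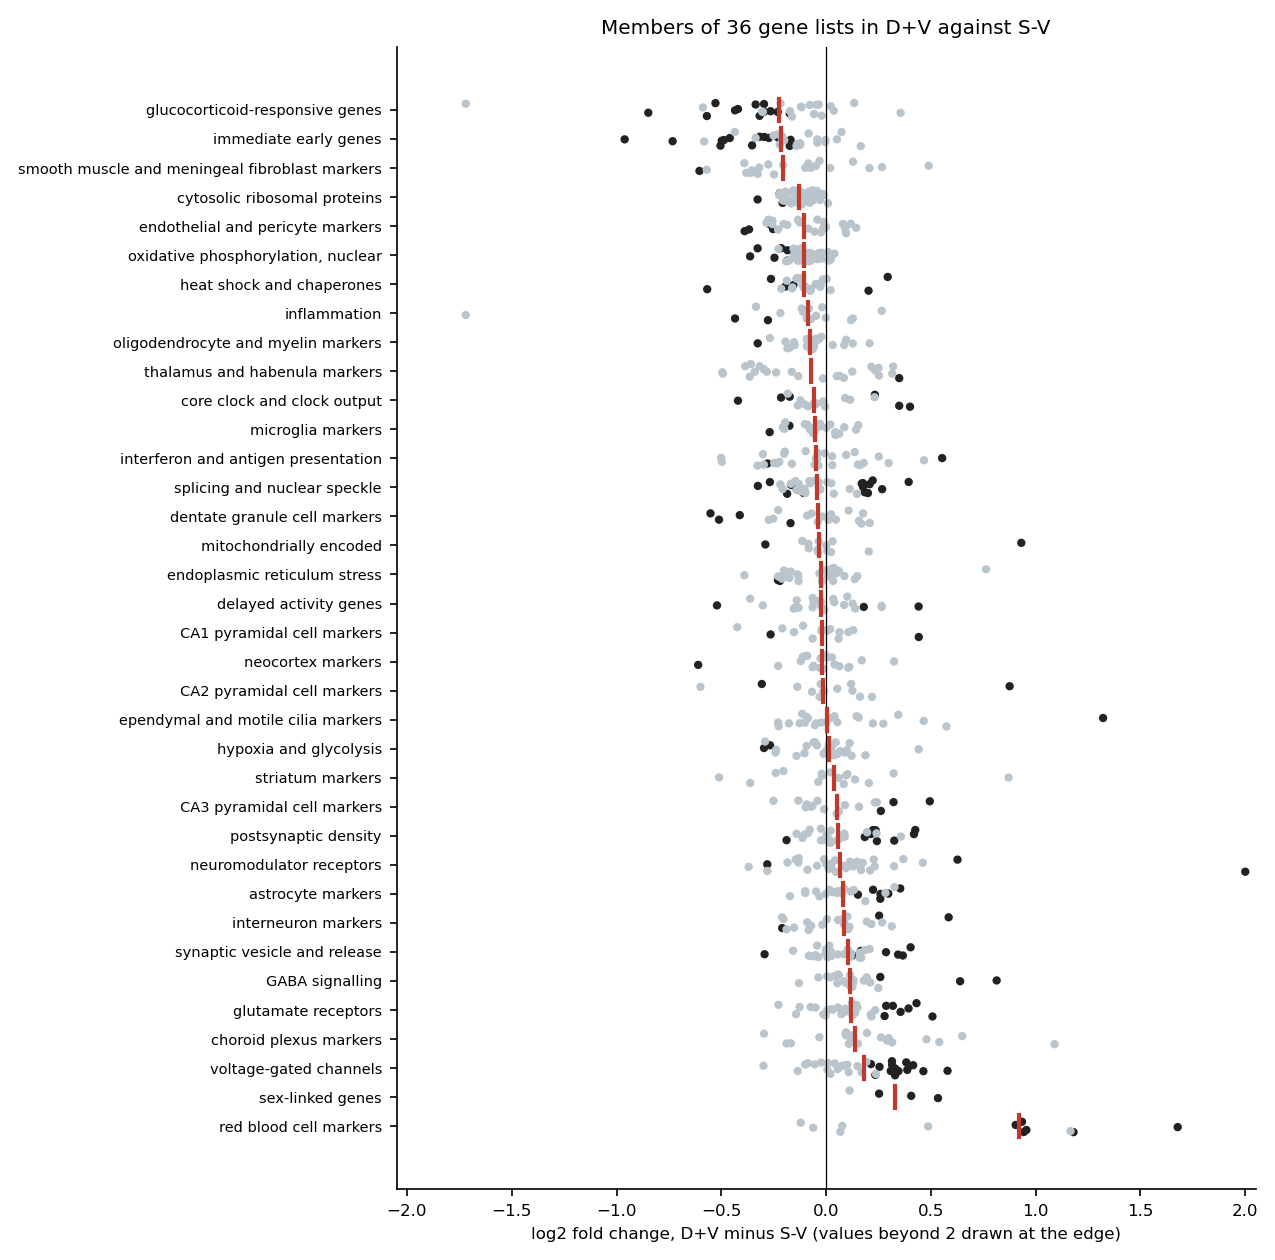
Log2 fold change (x axis, D+V minus S-V) of each measured member of 36 gene lists, ordered by median (red bars); black points have an unadjusted p under 0.05. Glucocorticoid-responsive and immediate early genes, both with a median of −0.22, are at the top, and voltage-gated channels (0.18) and red blood cell markers (0.92) near the bottom.

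Among cell type markers, those of blood had the largest median. Of 12 red blood cell markers 10 were positive (median 0.92), with Alas2, the first enzyme of erythroid heme synthesis, at 17.4, 55.2, 22.5, 6.74 and 16.3 CPM in D+V, against 8.08, 15.2, 7.25, 9.31 and 12.4 CPM in S-V (log2 1.18, SE 0.37). Globin transcripts Hba-a1 and Hba-a2, near copies of each other, were at 0.93 and 0.96. D+V libraries ranged from the lowest to the highest levels of blood, and the median was 0.40 without D+V library 2 and −0.02 without D+V libraries 2, 3 and 5. Endothelial and pericyte markers had 21 negative and 5 positive members (median −0.11). Cldn5, the tight junction protein of brain endothelium, had 39.4, 22.8, 27.8, 30.3 and 26.3 CPM in D+V, against 37.3, 34.1, 37.0, 36.9 and 44.2 CPM in S-V (log2 −0.37, SE 0.12), and Esam, an endothelial adhesion protein, was at −0.39 (SE 0.12), with no overlap. Slc2a1, the glucose transporter of the blood-brain barrier, was at −0.27 (SE 0.10). Without D+V library 5 the list median was −0.06. Smooth muscle and meningeal fibroblast markers had 5 positive and 16 negative members (median −0.20), 1 of them at an unadjusted p under 0.05, and their median was −0.06 without S-V library 4 and −0.08 without D+V library 5. Klf2 is also made in endothelium, and the part of endothelial RNA in its lower level was not tested.

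Glial and neuronal markers had smaller medians than those of blood and endothelium, though some lists were one-sided by sign. Astrocyte markers had 18 positive and 6 negative members (median 0.08), with Slc4a4, a bicarbonate cotransporter, at 0.26 (SE 0.08) and Aqp4, the water channel, at 0.22 (SE 0.08). At an unadjusted p under 0.05 were 6 of them (25%), all higher in D+V, against 8.2% of all genes higher at that p, and 0 were called. Microglia markers had 8 positive and 16 negative members (median −0.05), with Ctss, a lysosomal protease, at −0.27 (SE 0.07). Dentate granule cell markers had 8 positive and 11 negative members (median −0.04), with Plk5 at −0.55 (SE 0.18) and Rasl10a at −0.41 (SE 0.16). Markers of CA1 (−0.02), CA2 (−0.01), CA3 (0.05) and interneurons (0.08) were near 0 by median. Elavl2, an RNA-binding protein on the CA3 list, was at 0.32 (SE 0.09), Nectin3, an adhesion protein of CA3, at 0.26 (SE 0.09), Erbb4, a neuregulin receptor of interneurons, at 0.58 (SE 0.17) and Reln, which encodes reelin, at 0.25 (SE 0.10). Choroid plexus markers gave no steady direction: 16 of 20 were positive with a median of 0.14 and 0 at an unadjusted p under 0.05, but the mean list score was lower in D+V (−0.26 ± 2.19) than in S-V (0.44 ± 1.56), and without D+V library 2 the median was −1.86. The ependymal median of 0.00 was −0.31 without that library. The lists of thalamus and habenula (−0.07), oligodendrocytes (−0.08), neocortex (−0.02) and striatum (0.04) had at most 1 member at that p. That of oligodendrocytes had 5 positive and 20 negative members. Of all 37 lists, 15 had a median that changed sign in at least 1 of the leave-outs of 1 library, those of dentate granule cells, CA1, CA2, CA3 and microglia among them. Y-linked transcripts were found in every library of both groups, with Ddx3y at 29.0 to 50.3 CPM in D+V and 24.1 to 30.8 CPM in S-V.

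**Figure D5:**
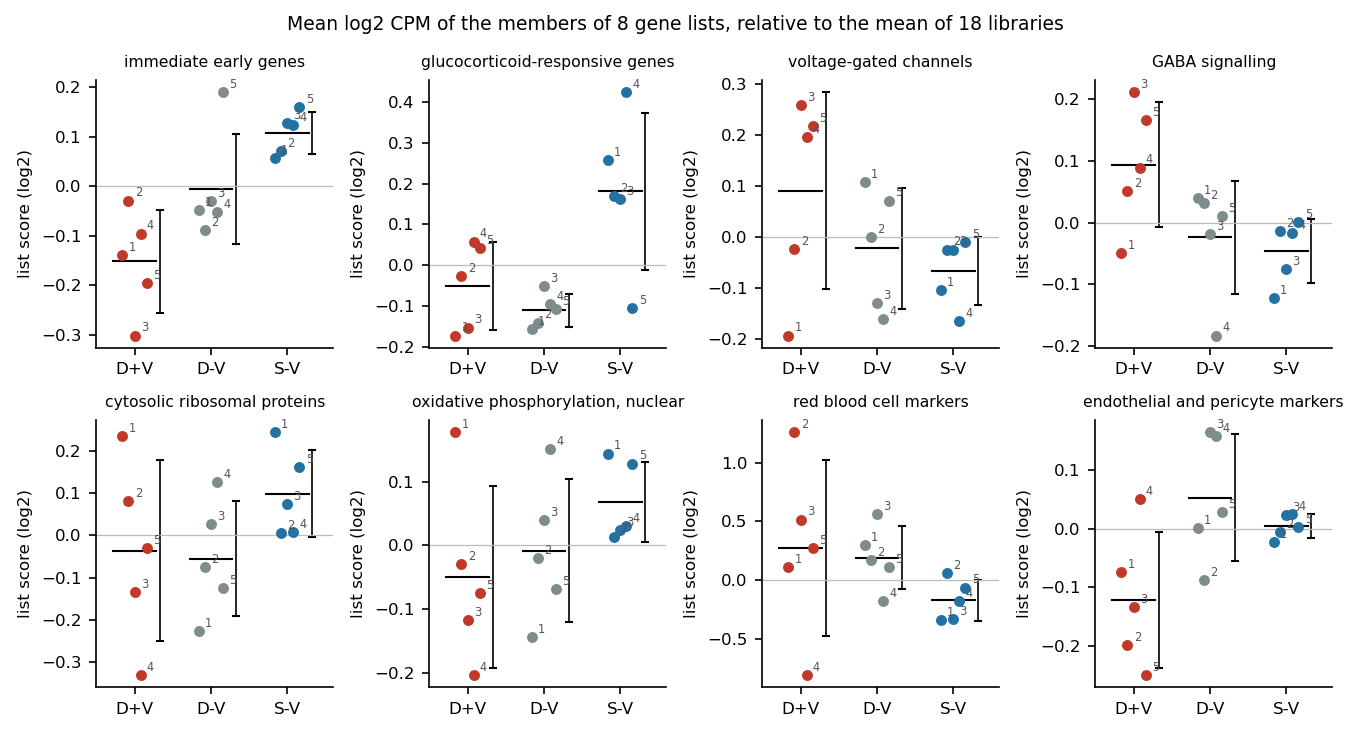
List scores (y axis, mean log2 CPM of the members relative to the mean of all 18 libraries) of 8 gene lists in D+V, D-V and S-V libraries; points are libraries with their number, lines are means and bars SD (n = 5 each). Immediate early genes have all D+V scores below all S-V scores, while for voltage-gated channels D+V library 1, at −0.19, is below all S-V libraries and D+V libraries 3, 4 and 5 are above them.

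The medians of 3 lists were followed across subsets of the libraries. Without D+V library 1 the median was −0.22 for immediate early genes, of which 4 were called, −0.20 for glucocorticoid-responsive genes, of which 7 were called, and 0.26 for voltage-gated channels, of which 12 were called. Over all genes 9.82% were called in that subset, so the count of immediate early genes was near this share. With D+V libraries 2, 3 and 5 left out together, which leaves D+V libraries 1 and 4, the medians were −0.20, −0.21 and 0.09, 426 genes were at an unadjusted p under 0.05 (2.89%) and 0 were called. Without the 5 libraries rich in choroid plexus markers, D-V libraries 3 and 4 among them, the medians were −0.25, −0.14 and 0.23. These subsets share libraries with each other, and that without D+V libraries 2, 3 and 5 was chosen after seeing the data. Of the D+V libraries it keeps, library 1 had a channel score of −0.19 and library 4 of 0.20. By median the early-response and stress lists were negative, and the channels positive, in each of these subsets. With GC and length trends taken out, as given above, both of the former stayed negative and the channels were no longer positive by median. The D+V libraries that remain without D+V library 1 all had a positive correlation of level with transcript length. The part of this trend in the channel values was not tested.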

How the data were processed

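RNA-seq of polyadenylated RNA from mouse hippocampus was analysed. The authors deposited a table of estimated counts, genes in rows and 1 column per library, per the file headers. Per the submitters' processing notes the tools were StringTie 1.3.1, HISAT2, DESeq2 and Bowtie2 2.2.8. Build, annotation and strand setting are not given in the labels or the table. Symbols were matched for 21973 of 22063 gene identifiers. Counts were rounded, filtered with filterByExpr (14763 genes kept) and scaled by TMM, and the D+V and S-V means were compared with edgeR 4.0.16 (R 4.3.3) in a fit of all 18 libraries and 4 group means, with Benjamini-Hochberg adjustment. CPM are relative to the TMM-scaled library total, and list scores use log2 CPM with a prior count of 2.

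The gene lists, members and tests were chosen with earlier results of these data known. Named were the 8 genes of smallest p in each direction (mean log2 CPM of at least 1, regular symbol), the 2 to 4 members of smallest p of each list described, and 12 fixed genes; a result that this rule selects is not reported here. Other values are counts and ranges. Transcript length and GC content are those of the longest transcript in a GENCODE annotation, and promoter windows are from RefSeq (GRCm38.p6). Alternatives were other scalings and filters, DESeq2 1.42.0, limma 3.58.1 (voom), a surrogate variable (sva 3.50.0), a choroid plexus covariate, subsets of libraries, and removal of each library's GC and length trends. The edgeR step was checked on simulated counts. Without molecular identifiers, PCR copies are counted too.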

Additional observations from a re-analysis of the deposited data

Results flagged for a closer look

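A library was singled out where its gap to the nearest other library of its group was larger, relative to the range of the group of 5, than Dixon's 95% critical value of 0.71. Of 244 groups checked 21 passed, and chance flags about 1 in 20. The causes were not tested.

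D+V library 1 was singled out most often. It was above the other D+V libraries for Trp53rka (17.95 CPM, the others 12.95 to 14.03), Hspe1 (55.49, the others 39.05 to 40.47), Selenos, a selenoprotein of the endoplasmic reticulum (37.78, the others 30.06 to 31.95), Cox5a (99.83, the others 71.25 to 78.97) and Rasl10a (37.53, the others 20.15 to 24.28). It was below them for Bdnf (30.68 CPM, the others 35.74 to 37.53) and Per1 (45.57, the others 52.14 to 54.58). D+V library 3 was low for Klf2 (6.447 CPM, the others 8.878 to 9.764) and for the dentate granule cell score (−0.2681, the others 0.02569 to 0.09057). D+V library 5 was high for mt-Atp8 (363 CPM, the others 79.85 to 135.6).

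S-V library 4 was high for Fos (23.65 CPM, the others 15.15 to 17.26), Hrh3 (55.98, the others 33.32 to 38.95), Pnisr (62.52, the others 50.86 to 53.82) and the inflammation score (0.4452, the others −0.05243 to 0.07461). It was low for Sesn1 (63.08 CPM, the others 70.57 to 72.69) and Nectin3 (28.81, the others 34.1 to 35.69). S-V library 5 was high for Egr2 (5.187 CPM, the others 2.839 to 3.396) and low for Cry1 (14.43, the others 18.11 to 19.41). S-V library 2 was high for Clock (66.14 CPM, the others 54.15 to 56.9), Gabrb1 (138.5, the others 105.3 to 113.6) and Bsn (469.6, the others 381.8 to 390.2).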

How the results depend on the processing

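The edgeR count of 0 called genes was also 0 with DESeq2 size factors, upper quartile scaling, no filter or a stricter one, fits of fewer groups, both covariates, GC and length trends taken out, and without the choroid plexus-rich libraries. It was 5 by DESeq2 and 1943 by limma voom with quality weights, which gave D+V library 1 the lowest weight (0.266). Over the leave-outs of 1 library it ran from 0 to 1450, with 1450 reached without D+V library 1, and the mitochondrial difference from −0.6321 to −0.3124 points. Deviations of same-numbered D+V and S-V libraries correlated at 0.205, 0.34, 0.012, −0.22 and −0.042. These values, from libraries that also differ in choroid plexus RNA and length trend, cannot decide whether the numbers pair the samples. With a replicate block 0 genes were called and 1674 were at an unadjusted p under 0.05, or 1032 with the block and the trends removed. Signs turned for Npas4 by DESeq2 (0.1214), for Bdnf by voom (0.0093), for Hrh3 with the choroid plexus covariate (−0.0465) and the surrogate variable (−0.033), and, with D+V libraries 2, 3 and 5 left out together (chosen after seeing the data), for Fkbp5 (0.129), Chrna7 (−0.1009) and Uty (−0.0046). Leave-outs of 1 library ranged from −0.1273 to 0.0134 for Fkbp5, −0.1124 to 0.0919 for Bdnf, 0.1246 to 0.4266 for Hrh1 and −0.054 to 0.1509 for Hrh3. The cause was not tested. All 16 genes of smallest p kept their direction in each of these settings. They were picked by p from these same libraries, so this was nearly fixed in advance and is no added evidence. Depth limits low genes such as Egr2 most.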

Other observations

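Transcripts of pineal and photoreceptor cells were found at trace levels and were chosen for mention after their values were seen. The summed level of Rbp3, Tph1, Gnb3, Crx, Tulp1 and Neurod4 was 0.512 to 0.838 CPM in D+V, 0.389 to 1.56 CPM in D-V, 1.26 to 7.09 CPM in S-V and 0.308, 18.9 and 1.46 CPM in the 3 Control libraries. All 5 S-V libraries lay above all 5 D+V libraries. Rbp3, which encodes a retinoid-binding protein of photoreceptors and pineal cells, had 0 to 0.197 CPM in D+V and 0.189 to 1.9 CPM in S-V. Tph1, the tryptophan hydroxylase of the pineal gland, had 0.18 to 0.395 CPM in D+V and 0.44 to 1.73 CPM in S-V. None of the 5 of these genes that were tested was called (smallest adjusted p by edgeR 0.252), and Crx was too low for the test. Of the list of 14 photoreceptor and retina genes, which holds Crx, 4 were tested, 2 with a positive and 2 with a negative log2 fold change (median −0.09) and 0 at an unadjusted p under 0.05, and its scores overlapped, at 0.09 ± 0.18 in D+V and 0.16 ± 0.24 in S-V (SD, n = 5 each).

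Other genes were also chosen after their values were seen. Ndufb1-ps, a complex I subunit gene under a pseudogene name, had the smallest p of all (4.21e-05, adjusted p by edgeR 0.175), with 13.7 to 16.6 CPM in D+V and 17 to 25.2 CPM in S-V, with no overlap. Nnt, the mitochondrial transhydrogenase, had 9.52, 18.9, 19.2, 11.8 and 6.12 CPM in D+V and 5.2, 6.36, 6.61, 6.29 and 1.69 CPM in S-V (log2 1.33, SE 0.40). Shc3, a neuronal adaptor protein, had 7.55, 26.2, 30.5, 12.8 and 30.7 CPM in D+V and 7.67 to 12.4 CPM in S-V. Gm14440 had 3.88 and 8.41 CPM in D+V libraries 2 and 3 and was at 0 in the other D+V libraries and in all 5 S-V libraries. It also had 3.92 and 2.86 CPM in D-V libraries 1 and 2 and 3.7 CPM in Control library 1. Fam205a4 had 10 CPM in D+V library 1, 0.0618 to 0.276 CPM in the other D+V libraries and 0.124 to 0.282 CPM in S-V. It also had 6.76 CPM in D-V library 1 and 6.59 CPM in Control library 2. Pmch, the melanin-concentrating hormone precursor of the hypothalamus, had 0 to 0.679 CPM in D+V and 0.165 to 0.566 CPM in S-V apart from S-V library 2, at 4.37 CPM.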
